A study of Homo sapiens with 8 samples.

Results

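EerI-treated 293T cells were set against control cells, in a comparison of 4 of the 8 arrays of the series. The arrays were chosen by their labels alone: 2 carried RNA of cells given 10 µM Eeyarestatin I (EerI) for 10 h, and 2 carried RNA of control cells. 293T is a line of human embryonic kidney cells that carries the SV40 large T antigen, and the labels name no other genetic change in any group. The other 4 arrays, 2 each of cells given CBU-028 or 5-nitrofuryl-acrolein (5-NA) at the same dose and time, entered the fit to estimate the spread and are used here to show where EerI differed from them. The sources used here do not state whether the control cells of the arrays received solvent. The study describes duplicate treatments, so the p-values measure the spread between 2 samples of a group, which may in part be technical.

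EerI is an inhibitor of ER-associated degradation (ERAD), the route by which misfolded proteins of the endoplasmic reticulum (ER) are pulled into the cytosol by the ATPase p97 (gene VCP) and destroyed by the proteasome. Cells answer misfolded ER proteins with the unfolded protein response (UPR), which has 3 sensors in the ER membrane. The kinase PERK phosphorylates the translation factor eIF2α, which slows protein synthesis and favours translation of the transcription factor ATF4. ATF4 in turn raises CHOP (gene DDIT3) and genes of amino acid import and synthesis, and the same route can be entered from other eIF2α kinases that sense amino acid shortage, double-stranded RNA or heme shortage. IRE1 splices the mRNA of XBP1, and ATF6 is cut to a transcription factor, and both raise ER chaperones and ERAD components. The comparison addresses which of these programmes, and which others, changed in level in cells given the inhibitor.

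All values are log2 values of probe sets, and a difference of 1 between 2 log2 values is a 2-fold difference. The median log2 value was 6.91 to 6.93 on the EerI arrays and 6.90 on the control arrays, and Pearson's r between duplicates was 0.998 in either group. The difference between the 3' and 5' probe sets of ACTB, a measure of RNA integrity, was 0.14 and 0.18 on the EerI arrays and 0.15 and 0.13 on the control arrays. Of the markers of an embryonic kidney line, KRT18 lay at 12.22 and above on the EerI arrays and 12.24 and above on the control arrays, and LIN28B at 11.66 and above with EerI and 11.65 and above in control cells. PAX2 was dimmer, with its highest probe set value at 6.70 with EerI and 6.77 in control cells. The study also used B cell lines, and the probe sets of 6 B cell markers lay between 3.08 and 7.79 with EerI and between 3.02 and 7.87 in control cells. Their summed linear level was 618 to 623 with EerI and 613 to 641 in control cells, and no probe set of either marker list passed the adjusted p in limma (nor did any probe set representing these genes reach p under 0.05 before adjustment).

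A change was counted at a Benjamini-Hochberg adjusted p under 0.05 from limma and a fold change of at least 2. Of 54675 probe sets, 50 were higher with EerI than in control cells (0.0914%) and 4 were lower (0.00732%), in 36 and 4 named genes. Of the 36 genes, 12 had more than 1 probe set past both thresholds, and 6 genes rose at least 4-fold. At the adjusted p alone, 195 probe sets were higher (0.357%) and 93 lower (0.17%), and with 1 of the 4 arrays left out 53 to 61 were higher (53 without EerI replicate 2) and 4 to 8 lower (4 without EerI replicate 1 or control replicate 1). Past both thresholds those fits gave 44 to 47 higher without an EerI array, 46 to 48 higher without a control array, and 3 to 5 lower. By the probe set with the highest mean signal for each of 19775 genes, 100 genes were higher (0.506%) and 52 lower (0.263%) at the adjusted p, and the median log2 fold change of all genes was -0.0016. These 2 shares are the background for the list counts at the adjusted p below. Before adjustment, 1014 of the 19775 genes were higher and 1327 lower at p under 0.05 in limma, which is the background for the unadjusted list counts below. A fit with an array left out has 1 array in a group, so a call can be lost there while the fold change hardly moves. In bulk RNA, a change in every cell and a change in the share of cells that express a gene cannot be told apart.

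**Figure D1:**
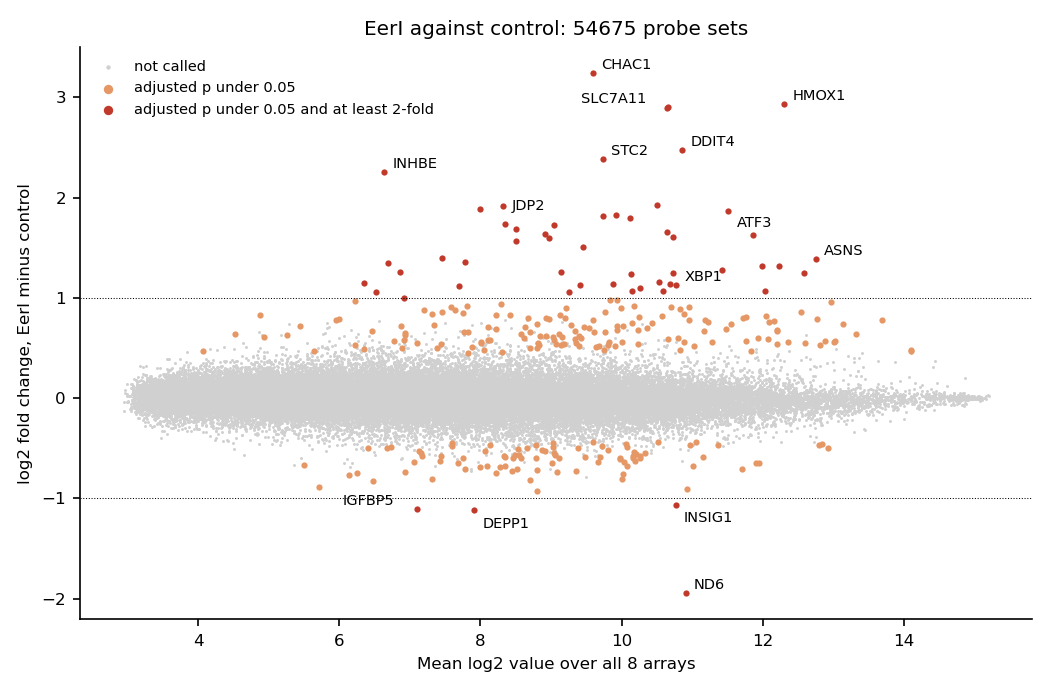
Log2 fold change of each of 54675 probe sets (EerI minus control, vertical axis) against its mean log2 value over all 8 arrays (horizontal axis), with probe sets past the adjusted p in orange and those also past 2-fold (dotted lines) in red. The 50 rises past both thresholds reach 3.24 for CHAC1, whereas the 4 falls end at -1.94 for ND6.

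The genes raised at least 2-fold included known carriers of the C/EBP-ATF composite element, a short site where ATF4 and its dimer partners bind, and the promoter sequences are shown because many of the raised genes are known ATF4 targets. The motif searched was TGATGNAA on both strands, in the 250 bases before and 50 bases after the start of transcription in RefSeq's annotation of GRCh38.p14. Of the 36 genes raised at least 2-fold, 29 had a promoter in the table, and 11 of those held a match (37.9%), against 4.46% of all 27305 genes with a promoter in the table. A match is a description of the letters in this window, since genes can use other starts and elements outside it. The matches that lie wholly before the start and stand in genes described below are shown with up to 20 bases on each side, 5' to 3' in the direction of the gene, with the match in capitals.
CHAC1, 209 bases before the start, chr15:40953242-40953289, plus strand: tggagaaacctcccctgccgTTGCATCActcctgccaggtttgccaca
ATF3, 191 bases before the start, chr1:212565196-212565243, plus strand: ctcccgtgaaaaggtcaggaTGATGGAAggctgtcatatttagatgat
HERPUD1, 176 bases before the start, chr16:56931946-56931993, plus strand: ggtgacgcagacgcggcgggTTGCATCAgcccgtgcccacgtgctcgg
ASNS, 68 bases before the start, chr7:97872449-97872496, minus strand: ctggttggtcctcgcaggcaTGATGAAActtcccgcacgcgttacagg
CEBPG, 42 bases before the start, chr19:33374051-33374098, plus strand: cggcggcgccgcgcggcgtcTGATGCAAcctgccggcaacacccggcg
AJUBA, 34 bases before the start, chr14:22976849-22976896, minus strand: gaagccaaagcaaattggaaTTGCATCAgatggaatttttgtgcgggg
JDP2, 16 bases before the start, chr14:75427986-75428021, plus strand: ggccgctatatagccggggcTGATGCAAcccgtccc
CHAC1, HERPUD1 and AJUBA hold the site in the reverse orientation, in which TGATGCAA reads TTGCATCA. In these 3 genes and in CEBPG and JDP2 the variable letter N of the motif is C, in ATF3 it is G and in ASNS it is A. The other 4 genes with a match, SLC1A4, CARS1, IFRD1 and SLC3A2, hold it across or after the start.

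The other motifs were less common among the 29 genes. The core of the antioxidant response element, to which NRF2 binds (TGACNNNGC, both strands), was in 6 of them (20.7%, against 16.1% of all genes). HMOX1 and SLC7A11, the NRF2 targets with the largest rises, are among the 7 genes whose promoters were not searched. The cAMP response element (TGACGTCA, its own reverse complement) was in IFRD1 alone (3.45%, against 2.25%). The ER stress response element, through which ATF6 and XBP1 act on chaperone genes (both strands), was in XBP1 alone (3.45%, against 0.0916% of all genes), 52 bases before its start, and it is shown as the 1 match of this element.
XBP1, chr22:28800583-28800641, minus strand: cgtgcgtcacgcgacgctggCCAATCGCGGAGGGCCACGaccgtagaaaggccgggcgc

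The transcription factors of the ATF4 route rose with EerI. Of 10 measured bZIP stress factors and partners, 7 rose and none fell, with a median log2 fold change of 1.08. JDP2, a repressor of AP-1 sites, had log2 values of 8.86 and 8.84 with EerI and 6.96 and 6.90 in control cells (log2 fold change 1.92, SE 0.0875, adjusted p = 2.41e-05). ATF3, a stress-induced repressor and activator that ATF4 controls, was at 11.70 on both EerI arrays and at 9.77 and 9.89 on the control arrays (1.87, adjusted p = 9.94e-05), and its 3 probe sets gave 0.42 to 1.87. DDIT3, which encodes the pro-apoptotic factor CHOP, had 10.27 and 10.37 with EerI against 8.50 and 8.49 in control cells. The duplicates of these 3 genes lay close together and the groups were far apart.

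ATF4 itself was at 13.99 and 14.00 with EerI and 13.17 and 13.25 in control cells, a log2 fold change of 0.78 (95% interval 0.58 to 0.98, adjusted p = 0.00732). The mRNA of ATF4 thus changed by less than the median of its targets given below, and its control by translation is not seen on an array. Leaving out any 1 of the 4 arrays ended the call of ATF4, at log2 fold changes of 0.74 to 0.82 and adjusted p of 0.0794 to 0.12. CEBPB and CEBPG, the C/EBP partners with which ATF4 forms dimers, rose by 1.32 and 1.25, and TRIB3, a pseudokinase that restrains ATF4 and CHOP, rose by 0.91. ATF5 was at -0.14, CREBRF at 0.37 and NUPR1 at 0.61, and none of these 3 passed the adjusted p.

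**Figure D2:**
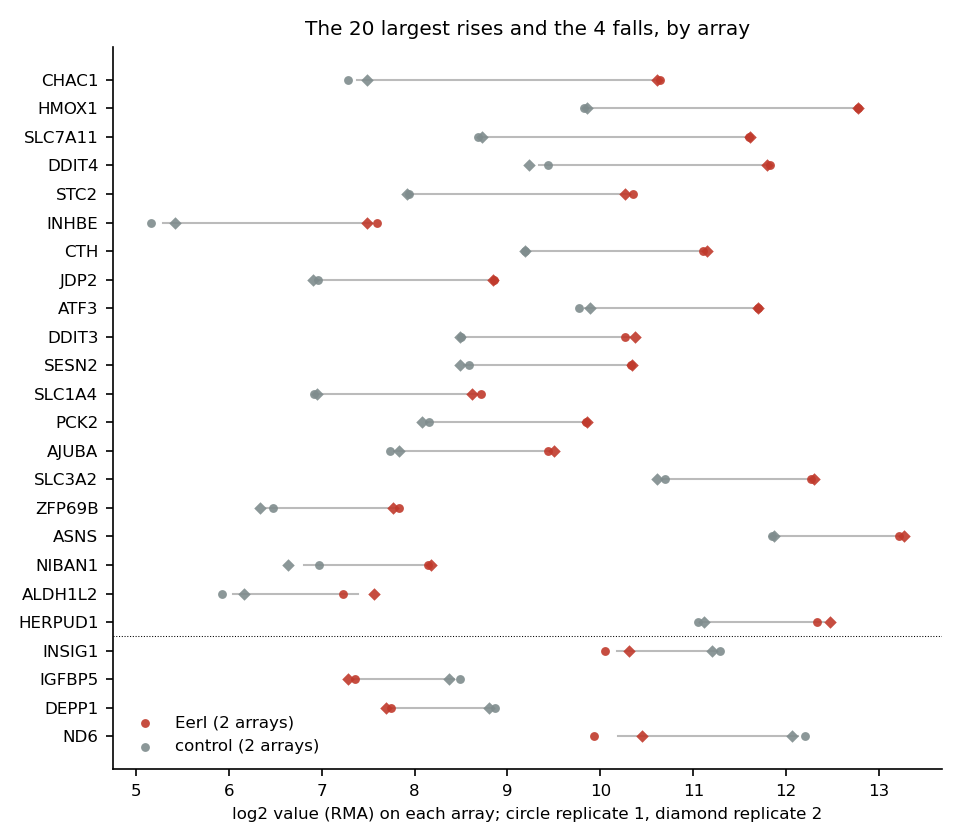
Log2 values on each of the 2 EerI arrays (red) and 2 control arrays (grey) for the genes with the 20 largest rises (above the dotted line) and the 4 falls past both thresholds, each by its probe set with the largest change, with a line between the group means. The EerI and control values of each gene shown are separate, from a distance of 3.24 for CHAC1 down to 1.32 for HERPUD1 among the rises.

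Of 34 measured targets of ATF4 and CHOP, 29 rose and none fell, with a median log2 fold change of 1.29 against -0.0016 for all genes. The lists overlap, and ATF3, DDIT3, CEBPB, CEBPG, JDP2 and TRIB3 count both here and among the bZIP factors. CHAC1, which breaks down glutathione, had 10.64 and 10.61 with EerI and 7.28 and 7.49 in control cells, a 9.46-fold rise that was the largest of all probe sets. DDIT4, an inhibitor of the growth kinase complex mTORC1, had 11.83 and 11.79 with EerI and 9.44 and 9.24 in control cells (5.55-fold, adjusted p = 8.26e-06). STC2, a secreted glycoprotein, had 10.35 and 10.27 with EerI and 7.94 and 7.91 in control cells (5.21-fold), and its other probe set rose by 1.51. INHBE, a subunit of activin E, had 7.60 and 7.48 with EerI and 5.16 and 5.42 in control cells (4.77-fold). No array of one group reached into the range of the other for these genes. With 2 arrays against 2 that is common, and over all 54675 probe sets EerI lay wholly above in 13448 and wholly below in 12350.

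Smaller rises among the targets were those of NIBAN1 (1.35), VLDLR (1.26), which encodes a lipoprotein receptor, and VEGFA (1.10), the growth factor of blood vessels. PPP1R15A, the phosphatase subunit that reverses the phosphorylation of eIF2α, averaged 9.70 with EerI and 8.98 in control cells (0.72, adjusted p = 0.0157, and up to 0.232 with an array left out), and was the 1 called member of 8 eIF2α kinases and phosphatase subunits. Its other probe set rose by 0.90 and passed in each of those fits. Of the kinases, EIF2AK3 (PERK) was at 0.46 (95% interval 0.26 to 0.66, adjusted p = 0.0699), and EIF2AK4, EIF2AK2 and EIF2AK1 were at -0.13, 0.01 and -0.02. The targets that did not pass by their brightest probe set were ATF5, GDF15 at 0.08, SHMT2 at 0.36, WARS1 at 0.41 and NUPR1. A dimmer SHMT2 probe set, at 0.48, just passed in limma (adjusted p = 0.0489). With 1 of the 4 arrays left out, 23 to 25 targets passed, and 23 of them did so in all 4 of these fits.

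Of the ATF4-dependent functions, amino acid synthesis changed at the steps toward serine and asparagine. Of 17 measured enzymes of serine, asparagine, proline and one-carbon metabolism, 7 rose and none fell, with a median of 0.36. PCK2, which makes phosphoenolpyruvate in mitochondria, had 9.84 and 9.85 with EerI and 8.16 and 8.08 in control cells (log2 fold change 1.73, adjusted p = 2.09e-05). ASNS, the asparagine synthetase, had 13.21 and 13.27 with EerI and 11.84 and 11.87 in control cells (1.39). The enzymes of the serine route from 3-phosphoglycerate all passed, with PSPH at 1.23, PSAT1 at 0.96 and, named after its value was seen, PHGDH at 0.56. ALDH1L2, a mitochondrial folate enzyme, rose by 1.34, and without EerI replicate 2 or control replicate 1 it did not pass (adjusted p = 0.116 and 0.107). With an array left out, 4 or 5 members passed (4 without EerI replicate 2 or control replicate 1), and PCK2, ASNS, PSAT1 and PSPH did so in every such fit.

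Genes of amino acid import also rose. Of 15 measured transporters, 7 rose and none fell (median 0.55). SLC7A11, the cystine carrier of system xc-, had 11.60 and 11.61 with EerI and 8.68 and 8.73 in control cells, a 7.46-fold rise with the smallest adjusted p among the rises named here (1.88e-06). Its 3 probe sets rose by 1.89 to 2.90. SLC3A2, the heavy chain that SLC7A11 and SLC7A5 need at the cell surface, had 12.26 and 12.30 with EerI and 10.69 and 10.61 in control cells (1.63). SLC1A4, a carrier of alanine and serine, rose by 1.64 and the glycine transporter SLC6A9 by 1.15. The other 3 rises lay between 0.59 and 0.77. With any 1 of the 4 arrays left out, 4 transporters passed, those named with values above.

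Some of the enzymes that load amino acids on tRNA rose. Of 17 cytosolic tRNA synthetases, 5 rose and none fell, with a median of 0.38: CARS1 at 1.07, GARS1 at 0.74, SARS1 and YARS1 at 0.57 each, and AARS1, named after its value was seen, at 0.52. GARS1 also supplies the enzyme of mitochondria. A dimmer SARS1 probe set rose by 1.26. Of 15 mitochondrial tRNA synthetases, none passed in limma (before adjustment, p was under 0.05 for 0 upward and 1 downward, and none passed the adjusted ANOVA), with log2 fold changes of -0.28 to 0.10 and a median of 0.00. With any 1 of the 4 arrays left out, CARS1 was the 1 cytosolic synthetase whose brightest probe set passed, and the dimmer SARS1 probe set passed in all 4 fits (adjusted p up to 0.00686). Levels of the cytosolic and mitochondrial enzymes were not tested against each other.

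Of 14 genes that restrain mTORC1, 3 rose: DDIT4, described above, SESN2 and EIF4EBP1. SESN2, a sestrin that senses leucine, had 10.85 and 10.80 with EerI and 9.23 and 9.21 in control cells (1.61, adjusted p = 4.82e-05), and its other probe set rose by 1.80. EIF4EBP1, the repressor of cap-dependent translation that mTORC1 phosphorylates, rose by 0.86 and did not pass with any 1 of the 4 arrays left out (adjusted p up to 0.0753). SESN1 was at -0.04 and SESN3 at -0.10, and the median of the list was 0.04. Of 16 secreted stress and growth factors, STC2, INHBE, VEGFA and FGF21 rose, with FGF21 at 0.72 (adjusted p = 0.0462, and up to 0.4 with an array left out), and GDF15 was at 0.08. VEGFA was also the 1 called member of 15 listed hypoxia-response genes, whose median was -0.06. DDIT4 and STC2, which hypoxia can also raise, were not in that list.

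**Figure D3:**
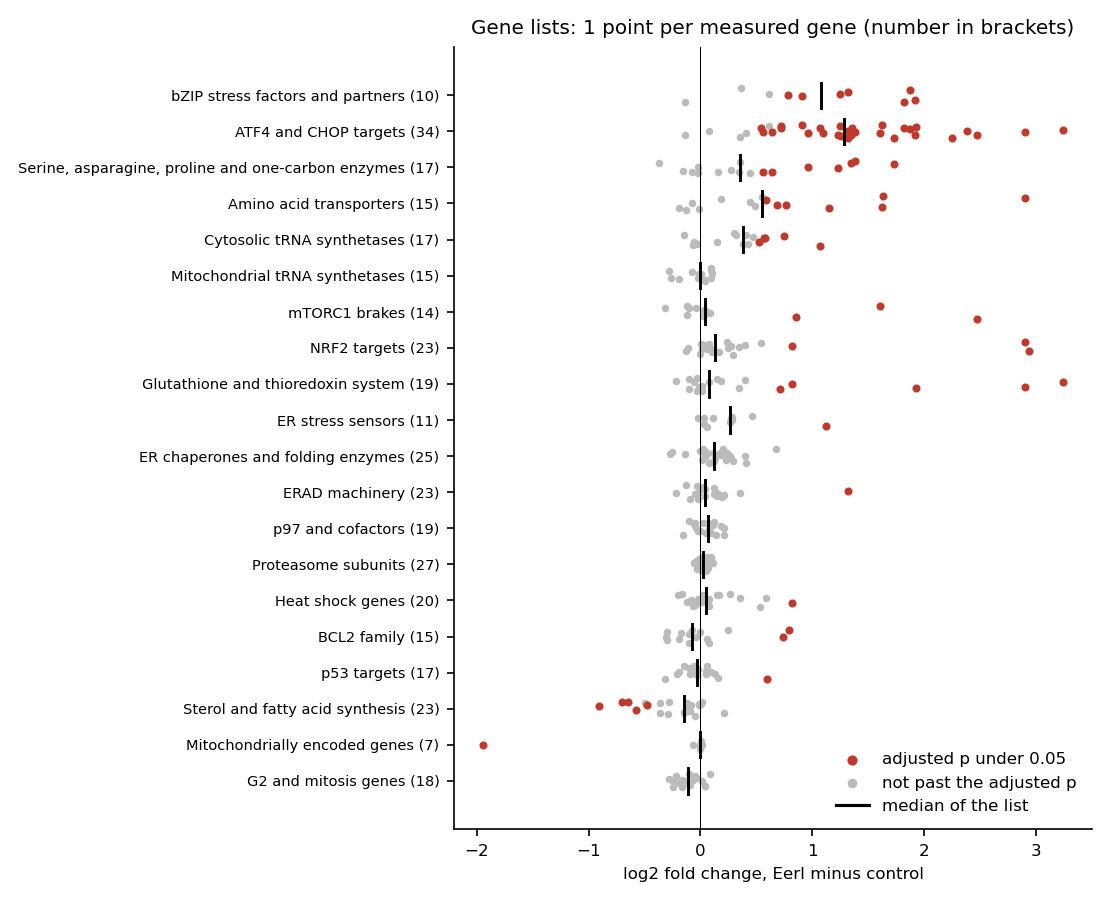
Log2 fold change (EerI minus control) of each measured gene in 20 of the gene lists, with genes past the adjusted p in red, the others in grey, the median of each list as a black bar and the number of measured genes in brackets. The medians of the bZIP factors (1.08) and of the ATF4 and CHOP targets (1.29) lie far to the right of 0, whereas the medians of the ER chaperones (0.12), p97 cofactors (0.06) and proteasome subunits (0.03) lie near it.

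Among the listed genes of the other UPR branches and of ERAD, calls were few, those of XBP1 and HERPUD1 and of the dimmest of the 3 probe sets of DNAJB9. HERPUD1 was also counted above among the ATF4 and CHOP targets. HSPA13, a microsomal Hsp70 in none of the lists, also rose and is given under the other observations. XBP1, the target of IRE1, had 11.04 and 11.11 with EerI and 9.90 and 9.99 in control cells (log2 fold change 1.12, adjusted p = 0.000434), and a dimmer XBP1 probe set was at 0.16. XBP1 was the 1 of 11 ER stress sensors and their factors that passed. ERN1, which encodes IRE1, was at 0.29 and ATF6 at 0.28 (95% interval 0.10 to 0.46, adjusted p = 0.233). The array does not separate spliced from unspliced XBP1.

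Of 25 measured ER chaperones and folding enzymes, none passed in limma (before adjustment, p was under 0.05 for 8 upward and 2 downward, and none passed the adjusted ANOVA). Of all 19775 genes, 1014 lay upward and 1327 downward at the same unadjusted p. Of the 25, 21 lay above 0, and the median was 0.12. HSPA5, the ER Hsp70 known as BiP, had 13.57 and 13.58 with EerI and 13.11 and 13.23 in control cells, a log2 fold change of 0.40 (95% interval 0.20 to 0.60, adjusted p = 0.116). DNAJB9, a BiP co-chaperone that IRE1 and XBP1 control, was at 0.68 (adjusted p = 0.0714), and its dimmest probe set at 0.73 passed (adjusted p = 0.0187), but not with any 1 of the 4 arrays left out (adjusted p up to 0.247). HSP90B1 (GRP94) was at 0.20 and SDF2L1 at 0.12. The EerI values of HSPA5 and of DNAJB9 lay above those of control cells on every array, as in 13448 of all 54675 probe sets. In the main fit, the adjusted tests of their brightest probe sets did not separate the groups. In some of the alternative fits given below, both genes passed.

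Of 23 ERAD genes, HERPUD1 alone passed. HERPUD1, an ER membrane protein that gathers ERAD components, had 12.34 and 12.47 with EerI and 11.05 and 11.12 in control cells (1.32, adjusted p = 0.000494), and a dimmer probe set was at 0.36. EDEM1 and SEL1L, which hand glycoproteins to the ubiquitin ligase HRD1, were at 0.16 and 0.14. VCP, the gene of p97, had 11.71 and 11.67 with EerI and 11.73 on both control arrays (-0.04, 95% interval -0.23 to 0.14). Its cofactors UFD1 and NPLOC4 were at 0.03 and -0.02, and none of 19 measured genes of p97 and its cofactors passed in limma (before adjustment, p was under 0.05 for 1 upward and 0 downward, and none passed the adjusted ANOVA).

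SEC61A1, the pore of the ER translocon, was at 0.16 (95% interval -0.01 to 0.32), and none of 16 translocon genes passed in limma (before adjustment, p was under 0.05 for 5 upward and 0 downward, and none passed the adjusted ANOVA). The 27 measured proteasome subunits spanned the narrowest range among these groups, -0.05 to 0.11, and none passed in limma with or without adjustment, or in the adjusted ANOVA. Of 6 transcripts that IRE1 is known to cleave, none passed in limma (before adjustment, p was under 0.05 for 0 upward and 1 downward, and none passed the adjusted ANOVA), with a median of -0.06.

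**Figure D4:**
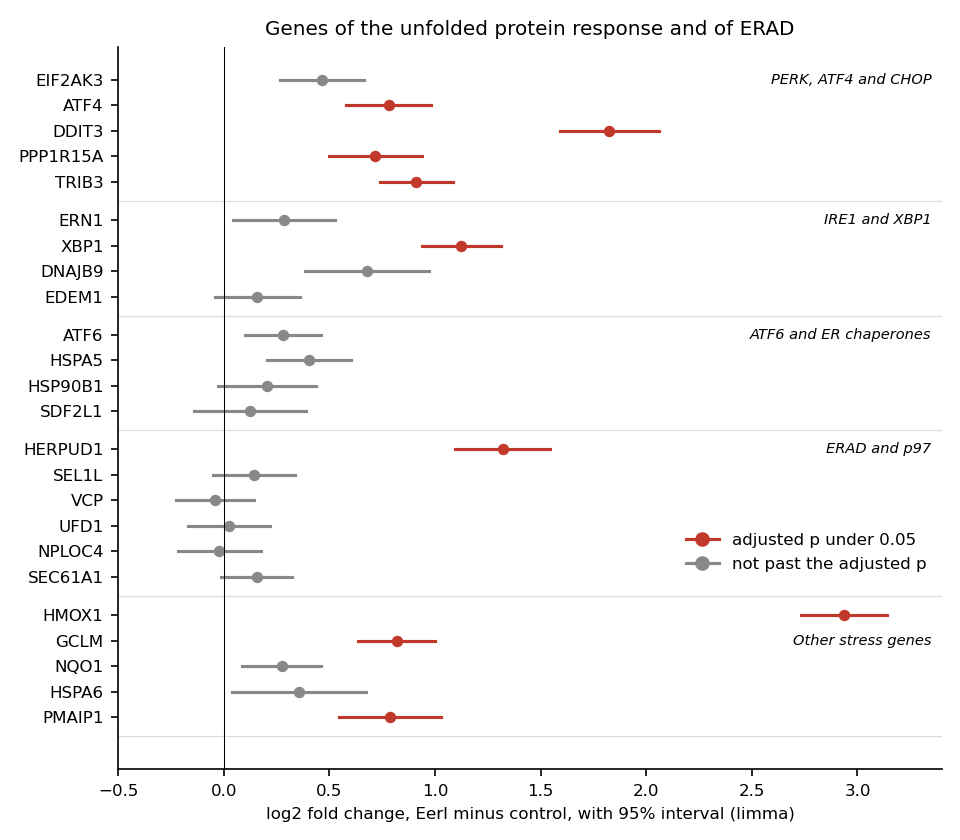
Log2 fold changes (EerI minus control, horizontal axis) with 95% intervals from limma for genes of the UPR branches, of ERAD and of other stress responses, in red where the adjusted p is under 0.05. DDIT3 (1.82), XBP1 (1.12) and HERPUD1 (1.32) stand to the right of the other genes of their blocks, and VCP (-0.04), UFD1 (0.03) and NPLOC4 (-0.02) lie at 0.

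Outside the UPR, the response to oxidants and electrophiles changed in a few genes. HMOX1, which degrades heme and is a target of NRF2, had 12.77 and 12.78 with EerI and 9.82 and 9.86 in control cells (7.66-fold, adjusted p = 2.75e-06). GCLM, a subunit of the enzyme that starts glutathione synthesis, had 11.97 and 11.95 with EerI and 11.12 and 11.16 in control cells (0.82), and all 3 of its probe sets passed. With an array left out, 1 of these 3 passed in all 4 fits. With SLC7A11 these were the 3 of 23 measured NRF2 targets that rose, against a list median of 0.13. Of the 23, 20 lay above 0, and 11 had p under 0.05 upward before adjustment. The count of rises was 7 with a trend in the prior variance and 11 by the unadjusted ANOVA. NQO1, a quinone reductase often used to read NRF2, was at 0.28 (95% interval 0.09 to 0.46, adjusted p = 0.263). Of 19 genes of the glutathione and thioredoxin system 5 rose, CTH (1.93) among them, the enzyme that makes cysteine from cystathionine. The 14 others lay between -0.22 and 0.40. None of 8 NRF, BACH and small MAF factors passed in limma (before adjustment, p was under 0.05 for 3 upward and 0 downward, and none passed the adjusted ANOVA).

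Heat shock genes gave a single call. ZFAND2A, a zinc finger gene induced by arsenite and heat, rose by 0.82, and 19 other measured heat shock genes did not pass, with HSPA6, a strictly inducible Hsp70, at 0.36 (7.29 and 7.16 with EerI, 6.84 and 6.90 in control cells). HSPA1A has no probe set assigned to it alone and was not analysed. Among 19 genes of the AP-1 and immediate early group DUSP1 rose by 0.56, while FOS was at -0.02 and JUN at 0.45 by its brightest probe set, with 2 others that passed at 0.74 and 0.78. ZFAND2A and DUSP1 did not pass with any 1 of the 4 arrays left out (adjusted p up to 0.121 and 0.228).

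Genes of cell death gave 2 rises among 15 measured members of the BCL2 family. PMAIP1, which encodes the BH3 protein NOXA, had 12.99 and 12.93 with EerI and 12.17 and 12.18 in control cells (log2 fold change 0.79, 95% interval 0.55 to 1.03, adjusted p = 0.0157). HRK, another BH3 gene, rose by 0.74, and 13 other members lay between -0.30 and 0.24. With any 1 of the 4 arrays left out, the log2 fold change of PMAIP1 was 0.76 to 0.82. Neither PMAIP1 nor HRK kept its call in all 4 such fits, each of which has 1 array in a group. Of 17 p53 targets GADD45A alone rose (0.60, adjusted p up to 0.217 with an array left out), with CDKN1A at 0.09 and MDM2 at 0.05, and in these cells the large T antigen binds p53. SESN2 (1.61) and PMAIP1 are also known p53 targets, but they were counted in other lists and not in this one. Whether p53 had a part in any of these values was not tested. None of 9 death receptor genes passed in limma (before adjustment, p was under 0.05 for 1 upward and 1 downward, and none passed the adjusted ANOVA).

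The falls were fewer, and sterol synthesis held 5 of them. Of 23 measured genes of sterol and fatty acid synthesis 5 fell and none rose, with a median of -0.14, and 3 lay above 0. INSIG1, the ER protein that holds back the sterol sensor SCAP and is itself a target of SREBP2, had 10.42 and 10.51 with EerI and 11.37 and 11.36 in control cells (log2 fold change -0.90, adjusted p = 0.00121). All 3 of its probe sets fell, by 0.60 to 1.07. SQLE was at -0.70, IDI1 at -0.64, MSMO1 at -0.58 and, named after its value was seen, the fatty acid elongase ELOVL6 at -0.48. HMGCS1 was at -0.50 (adjusted p = 0.0947). With any 1 of the 4 arrays left out, INSIG1 was the 1 member that passed.

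ND6, a subunit of respiratory complex I and the protein encoded on the light strand of mitochondrial DNA, had 9.93 and 10.45 with EerI and 12.20 and 12.06 in control cells (log2 fold change -1.94, 95% interval -2.28 to -1.61). The EerI duplicates of ND6 were further apart than those of the other genes shown by array, and both lay below the control arrays. The other 6 measured mitochondrially encoded genes lay between -0.06 and 0.01. DEPP1, a gene that FOXO factors induce, had 7.75 and 7.69 with EerI and 8.86 and 8.80 in control cells (-1.11), while its other probe set was at -0.21 (95% interval -0.44 to 0.03, adjusted p = 0.579), so these probe sets disagree. For IGFBP5, a binding protein of insulin-like growth factors, 1 probe set fell by 1.10 and the other 5 lay between -0.28 and 0.08, a disagreement as well. IFIT1, an interferon-induced gene, fell by 0.73, and TFRC, the transferrin receptor, by 0.50 (adjusted p = 0.0474). With any 1 of the 4 arrays left out, neither IFIT1 nor TFRC passed (adjusted p up to 0.25 and 0.447).

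Of the 42 gene lists, 21 held no call in limma. Over the 255 measured entries of these lists, 27 lay upward and 16 downward with p under 0.05 before adjustment, and none passed the adjusted ANOVA. Over all 19775 genes, 1014 lay upward and 1327 downward at the same unadjusted p. Among them were 18 genes of G2 and mitosis (median -0.11) and 20 of DNA replication (median -0.05), with no log2 fold change beyond -0.28 in either. All lists together held 549 measured genes, of which 49 rose and 8 fell. Of all 19775 genes, 0.506% rose and 0.263% fell at the same adjusted p.

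The 2 related compounds were compared with EerI directly, each at the same dose and time, in 2 pairs with p-values adjusted over all probe sets of a pair. The standard deviation between duplicates was 0.163 for CBU-028, 0.119 for 5-NA, 0.0974 for EerI and 0.0921 for control. The fit used 1 spread per probe set for all groups, so intervals and p-values against CBU-028 may be too narrow and too small. 5-NA is the nitrofuran-containing part of EerI without its aromatic, membrane-binding part, and CBU-028 is a further compound of the study. The titles of the 5-NA arrays carry a number that the study's list of compounds attaches to a different compound, while their other labels name 5-NA, so every value given for 5-NA rests on those other labels. Past both thresholds, 40 probe sets differed between EerI and CBU-028 (0.0732%), 22 with EerI above, and 269 differed between EerI and 5-NA (0.492%), 73 with EerI above. The probe sets raised by EerI were chosen on the same EerI arrays that enter these tests. Of those 50 probe sets, EerI was above CBU-028 in 2 and below it in 11 at the adjusted p, and 37 did not pass. Over all probe sets at the same adjusted p, EerI was above CBU-028 in 915 (1.67%) and below it in 698 (1.28%). Against 5-NA, EerI was above in 28 of the 50 and below in 2, and 20 did not pass. Over all probe sets, EerI was above 5-NA in 3872 (7.08%) and below it in 3787 (6.93%).

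AJUBA, a LIM protein of cell junctions and of Hippo signalling, accounted for both probe sets above CBU-028. By the brighter of them it had 9.90 and 9.89 with EerI and 8.37 and 8.22 in control cells (1.60), and EerI lay above CBU-028 by 0.55 (95% interval 0.35 to 0.76, adjusted p = 0.0182) and above 5-NA by 1.52 (95% interval 1.32 to 1.73). Against the same control arrays, AJUBA was at 1.04 with CBU-028 and 0.07 with 5-NA. ZBED3, an axin-binding protein, was likewise at 1.07 with EerI and 0.06 with 5-NA (difference 1.02, adjusted p = 0.000394), and PCK2 at 1.73 and 0.56 (difference 1.17, adjusted p = 0.000137). INSIG1 fell further with EerI than with 5-NA, by a difference of -0.88 (adjusted p = 0.00177) for its probe set with the largest fall.

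Other genes were lower with EerI than with a related compound. ATF3 was lower with EerI than with CBU-028 by a difference of -0.97 (95% interval -1.22 to -0.73, adjusted p = 0.00659), HMOX1 by -0.80, CEBPG by -0.69 and STC2 by -0.63. SESN2 was lower with EerI than with 5-NA by -0.66 (adjusted p = 0.00137). For IFRD1, a transcriptional co-regulator that rose by 1.28 with EerI, the difference was 0.02 from CBU-028 (95% interval -0.20 to 0.23) and 0.02 from 5-NA (95% interval -0.20 to 0.23). For XBP1 the difference was -0.16 from CBU-028 (95% interval -0.34 to 0.03) and 0.23 from 5-NA (95% interval 0.05 to 0.42), and for HERPUD1 it was 0.08 (95% interval -0.14 to 0.31) and 0.25 (95% interval 0.03 to 0.48). None of these differences of XBP1 and HERPUD1 passed the adjusted p.

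**Figure D5:**
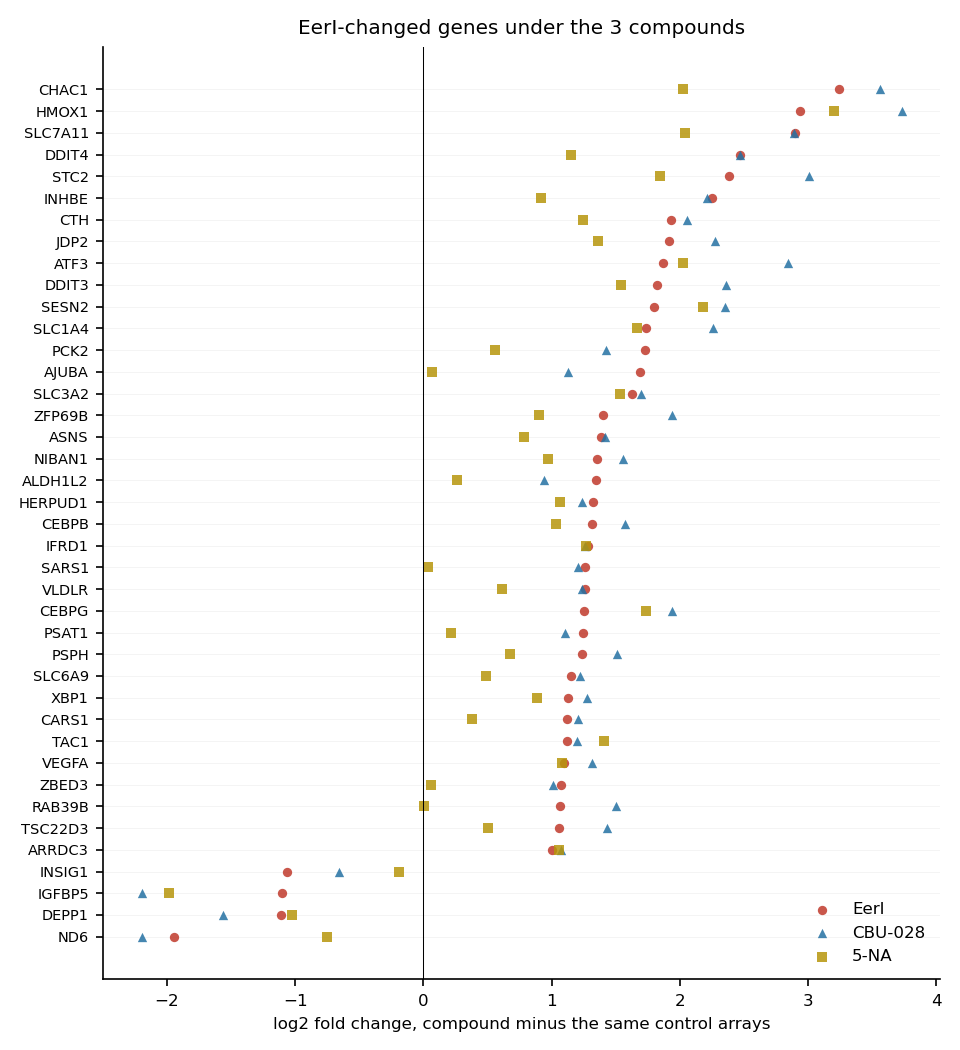
Log2 fold changes of the 36 genes raised and the 4 lowered at least 2-fold by EerI, by the probe set with the largest change with EerI, for EerI (red circles), CBU-028 (blue triangles) and 5-NA (yellow squares), each minus the same 2 control arrays. AJUBA, SARS1, ZBED3 and RAB39B lie between 0.01 and 0.07 with 5-NA and between 1.06 and 1.69 with EerI. By their brightest probe sets, not shown here, SARS1 and RAB39B are at 0.57 and 0.84 with EerI.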

How the data were processed

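RNA from 8 samples of 293T cells was hybridised to Affymetrix arrays, 2 for each group. The probe sets have identifiers of HG-U133 Plus 2.0, while the methods name another array of that family. The authors deposited log2 values from RMA, in which background is removed, all arrays receive 1 distribution and the probes of a probe set are summarised. The submitters' processing notes also list Partek, and no versions are given. A shared distribution hides any change common to most genes, and the number of arrays limits the precision (median SE 0.099). Group means were fitted to all 8 arrays with limma 3.58.1 in R 4.3.3, with 4 residual and 5.08 prior degrees of freedom, and p-values were adjusted by Benjamini-Hochberg over all probe sets. The methods selected genes by ANOVA and do not state whether its p-values were adjusted. An exact test of 2 arrays against 2 cannot go below p = 0.333. The platform annotation gave 41097 probe sets a single symbol, and each gene took the values of its probe set with the largest mean. The genes, gene lists and motifs were chosen with earlier results of these data known, so list counts are descriptions. Named were genes with a probe set past both thresholds, up to 4 called members of each list by size of change, and defining genes of the UPR and of ERAD. The fit was tested on simulated data. Alternatives covered the ANOVA, fold and signal thresholds, 1 probe set per gene, cross-hybridising probe sets, scaling, replicate block, samples in the fit, prior variance and left-out arrays. Python 3.11.15 with matplotlib 3.10.9 drew the figures.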

Additional observations from a re-analysis of the deposited data

How the results depend on the processing

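The counts past both thresholds (50 higher, 4 lower) were 20 and 0 by the methods' ANOVA after adjustment, 144 and 51 at 1.5-fold, and 32 and 2 with 1 probe set per gene. At the adjusted p alone (195 higher, 93 lower), they were 2493 and 2909 by the unadjusted ANOVA, 35 and 18 by the adjusted ANOVA, 325 and 287 among probe sets with a mean log2 value of at least 7, 334 and 195 without the CBU-028 arrays, 402 and 348 with a trend in the prior variance, and 53 to 61 and 4 to 8 with 1 EerI or control array left out. No clear pairing by replicate number was seen, with a correlation of replicate differences of -0.12 between EerI and control and of -0.15 to 0.15 over the 6 pairs of groups. Each group gives a single such difference, so whether samples of 1 number were handled together cannot be told from these values. The replicate block gave 164 higher and 55 lower at the adjusted p and 50 and 4 past both thresholds, and exchanging the numbers of the EerI arrays, chosen after seeing the data, gave 177 and 65, and 50 and 4. By the adjusted ANOVA, 16 of the ATF4 and CHOP targets, 3 bZIP factors, 4 serine and related enzymes, 2 amino acid transporters, 2 cytosolic tRNA synthetases and 1 sterol gene passed. By the unadjusted ANOVA the enzymes were 11, the synthetases 11, the ER chaperones 10 and the sterol genes 11. Synthetases were 9 and ER chaperones 2 at a mean of at least 7, 10 and 2 with the trend, and ER chaperones 1 with the EerI and control arrays alone. HSPA5 passed in limma with the trend (adjusted p = 0.00638) and at a mean of at least 7 (adjusted p = 0.0428). DNAJB9, by its brightest probe set, passed in limma with the trend (adjusted p = 0.0135), at a mean of at least 7 (0.037) and with the EerI and control arrays alone (0.0211). With an array left out, the enzymes were 4 to 5, the transporters 4, the synthetases 1 and the sterol genes 1. Of the 29 genes whose fold changes were followed under these alternatives, 0 changed direction. A change of test, signal threshold, block or prior variance leaves the fold change of a gene as it is. Most of the 29 were also picked for their large changes, so a change of direction was hardly possible. The causes of the shifts in the counts were not tested beyond the fewer or other samples and probe sets fitted.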

Other observations

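Genes outside the lists also moved, and those named here were chosen after their values were seen. Of the genes called by their representing probe set, 51 that rose and 44 that fell were in no list. Among the falls, the homeobox genes HOXA2 and HOXB3 were at -0.88 and -0.58, and HOXA2 had 5.44 and 5.34 with EerI and 6.49 and 6.06 in control cells. The retinoic acid-degrading enzyme CYP26A1 was at -0.82, the transcription factors HAND1 and NR2F1 at -0.68 and -0.73, the BMP signal inhibitor SMAD6 at -0.73, the hedgehog co-receptor GAS1 at -0.75 and the Notch ligand DLL1 at -0.60. The proteoglycan gene VCAN was at -0.71 by its representing probe set, with 8.60 and 8.56 with EerI and 9.30 and 9.29 in control cells, and 3 further VCAN probe sets at -0.63 to -0.93 passed. FGFR3, a receptor of fibroblast growth factors, was at -0.55, and fibrillin 2 (FBN2) at -0.59. With 1 of the 4 arrays left out, HOXA2, CYP26A1 and 1 further VCAN probe set passed in 1 of the 4 fits, and the other falls named here passed in none (adjusted p up to 0.367 among all of them).

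Among the rises, TXNIP, which slows glucose uptake, was at 0.71 and its relative ARRDC4 at 0.64. ARRDC3, another arrestin-domain gene, which just passed 2-fold, had 7.11 and 7.16 with EerI and 6.12 and 6.15 in control cells. TSC22D3, known as the glucocorticoid-induced leucine zipper, rose by 1.06, and the neuropeptide genes TAC1 and CALCB by 1.12 and 0.89. HSPA13, a microsomal Hsp70 that was in none of the lists, rose by 0.70 in each of 2 probe sets. GRB10, an adaptor that restrains insulin signalling and is a substrate of mTORC1, rose by 0.75. TXNIP, ARRDC4, HSPA13 and GRB10 did not pass with any 1 of the 4 arrays left out (adjusted p up to 0.117, 0.171, 0.151 and 0.185 for their brightest probe sets), whereas ARRDC3, TSC22D3, TAC1 and CALCB passed in all 4 fits.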
